A study of Homo sapiens with 8 samples.

Results

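The NuRD complex (nucleosome remodelling and deacetylase) joins an ATPase of the CHD family, which slides nucleosomes, to histone deacetylases in a single assembly. The subunits other than the ATPase are described here through 10 genes, namely MTA1, MTA2, MTA3, HDAC1, HDAC2, RBBP4, RBBP7, MBD3, GATAD2A and GATAD2B, chosen by symbol as 10 of the 19583 rows of the expression table. MTA proteins form a scaffold that binds the deacetylases HDAC1 and HDAC2 and the histone-binding WD40 proteins RBBP4 and RBBP7. MBD3, or its relative MBD2, joins this deacetylase module to the GATAD2 proteins, which in turn bind the ATPase CHD4. NuRD acts at promoters and enhancers of differentiation and cell cycle genes, and several of its subunits are shared with other repressive or chromatin assembly complexes.

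RNA came from MDA-MB-231 cells, a mesenchymal human breast cancer line without estrogen and progesterone receptors. Cells whose label names a short hairpin RNA to CHD4 (shCHD4) were kept for 24 hours at 1% O2 or at 20% O2, and cells with a scrambled hairpin (shSC) likewise at 1% O2 or 20% O2. Each of these 4 groups holds 2 libraries. The series was made to ask how CHD4 bears on the activity of the hypoxia-inducible factors. No source used here gives the hairpin sequence or says that replicate libraries were grown as separate cultures, and the error behind each p-value is therefore the library-to-library spread, possibly only technical.

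Libraries held 24947627 to 31903585 gene-assigned reads, and each member had between 507 and 6528 reads in a library. Values are normalised read counts, that is, reads scaled by a single factor for each library, with no correction for gene length. CHD4 RNA itself was not lower under the shCHD4 label, with 293.4 and 304.6 normalised counts in shCHD4 cells against 298.9 and 298.2 in shSC cells at 20% O2, and 299.1 and 286.9 in shCHD4 cells against 279.7 and 278.2 in shSC cells at 1% O2, so the differences below are between sets of libraries named by label. Over all genes the first principal component held 88.8% of the variance, and its relation to label or O2 level was not tested. The mesenchymal markers VIM, CD44, AXL and FOSL1 summed to 7959 to 9404 normalised counts under shCHD4 and 6500 to 9132 under shSC, mostly VIM. They did not differ one way. Under shCHD4 at 20% O2, VIM (0.66, adjusted p = 3.35e-10) and AXL (0.15, adjusted p = 0.00289) were higher in limma. CD44 (-0.79, adjusted p = 2.48e-12) and FOSL1 (-0.74, adjusted p = 2.16e-11) were lower. The list median was -0.30 at 20% O2 and -0.40 at 1% O2. The luminal markers ESR1, PGR, CDH1, EPCAM, GATA3 and KRT19 summed to 45.4 to 66.6 under shCHD4 and 81.1 to 156 under shSC, mostly KRT19. PGR was at 0 in all shCHD4 libraries and had 0 to 3 reads in the shSC libraries, too few to compare. ESR1 had 1 to 4 reads in every library. In bulk RNA, fewer cells of a type and less RNA per cell cannot be told apart, and the part of these marker differences in the results was not tested.

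Promoter sequences are shown for RBBP4, RBBP7 and HDAC2, which were higher under the shCHD4 label and lower at 1% O2 under shSC, and for GATAD2B, the member most reduced under the shCHD4 label. Each is the stretch of 250 bases just upstream of the most upstream annotated start in RefSeq (build GRCh38.p14), 5′ to 3′, with capitals marking the hypoxia response core (ACGTG or GCGTG) and the CCAAT box (CCAAT), searched on both strands.
RBBP4, chr1:32650958-32651207, plus strand: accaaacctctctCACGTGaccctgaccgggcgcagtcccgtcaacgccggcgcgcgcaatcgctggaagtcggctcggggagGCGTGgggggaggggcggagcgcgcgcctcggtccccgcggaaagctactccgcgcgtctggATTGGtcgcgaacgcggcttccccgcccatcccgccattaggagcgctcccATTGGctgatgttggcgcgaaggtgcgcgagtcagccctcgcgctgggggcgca
RBBP7, chrX:16870363-16870612, minus strand: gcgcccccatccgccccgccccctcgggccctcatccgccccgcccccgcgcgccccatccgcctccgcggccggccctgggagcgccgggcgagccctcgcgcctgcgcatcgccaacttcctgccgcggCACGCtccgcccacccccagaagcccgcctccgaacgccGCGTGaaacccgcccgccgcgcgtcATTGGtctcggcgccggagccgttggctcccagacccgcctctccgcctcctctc
HDAC2, chr6:113971149-113971398, minus strand: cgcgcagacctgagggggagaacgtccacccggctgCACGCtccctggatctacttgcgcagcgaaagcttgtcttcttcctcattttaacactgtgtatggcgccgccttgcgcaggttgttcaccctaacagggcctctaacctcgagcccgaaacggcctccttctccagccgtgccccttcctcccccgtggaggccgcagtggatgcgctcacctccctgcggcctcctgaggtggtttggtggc
GATAD2B, chr1:153922973-153923222, minus strand: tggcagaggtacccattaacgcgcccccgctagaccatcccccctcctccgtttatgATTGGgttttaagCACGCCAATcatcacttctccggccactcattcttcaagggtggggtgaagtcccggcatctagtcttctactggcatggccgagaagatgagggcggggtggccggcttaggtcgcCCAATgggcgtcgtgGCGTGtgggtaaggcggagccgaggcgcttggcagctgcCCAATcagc
RBBP4 was the only member with ACGTG, in 1 of the 15 upstream windows that RefSeq gives for the 10 genes, where both strands of 1 CACGTG match. Among all 35116 such windows 18.5% hold ACGTG, 32.2% GCGTG and 32% CCAAT. Of the 15 member windows 8 held GCGTG and 8 held CCAAT, and GATAD2B had 4 CCAAT matches, of which 1 overlaps a GCGTG match. CpG dinucleotides numbered 37 in the RBBP4 stretch, 40 in that of RBBP7, 18 in that of HDAC2 and 17 in that of GATAD2B, against a median of 11 over all windows.

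Between labels the deacetylase and histone-binding genes differed one way and the scaffold genes the other. At 20% O2, HDAC1, HDAC2, RBBP4, RBBP7 and MBD3 were higher in cells labelled shCHD4 than in shSC cells, MTA1, MTA2, MTA3 and GATAD2B were lower, and GATAD2A did not pass the test. The same 5 genes were higher and the same 4 lower at 1% O2. These 9 of 10 stand beside 75.6% of the 12645 genes tested that passed in either direction at 20% O2 (37% higher, 38.6% lower), and 77.4% at 1% O2 (38.2% higher, 39.2% lower), so most genes passed here, members or not. The test was limma on log2(value + 0.5) over all genes with Benjamini-Hochberg adjustment. The share of all genes without overlap between groups was not counted. Non-overlap of members below therefore only describes their counts and shows nothing particular to them. GATAD2A, which did not pass, was also without overlap between labels, higher at 20% O2 and lower at 1% O2. The median log2 difference of the 10 members was 0.13 at 20% O2 and 0.046 at 1% O2, against -0.0091 and -0.0067 over all genes.

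**Figure D1:**
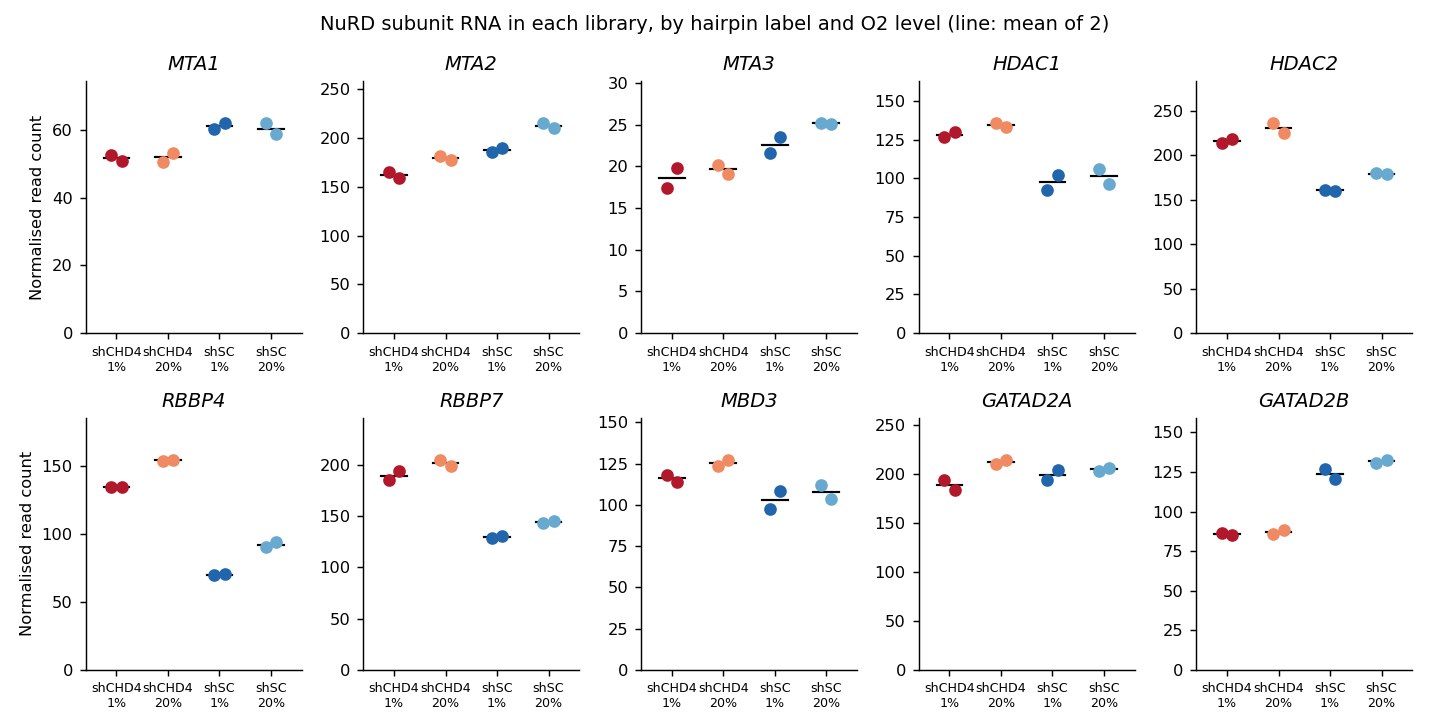
Normalised read counts (y axis, from 0) of the 10 members in each library, by label and O2 level (x axis). Points are libraries and lines are means of 2. RBBP4 lies at 134.7 to 154.8 in the shCHD4 libraries and at 69.9 to 94.3 in the shSC libraries, and GATAD2B shows the opposite order.

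The histone-binding subunits had the largest rise. RBBP4 (RbAp48), which is also a subunit of the chromatin assembly factor CAF-1, of PRC2 and of the SIN3 complex, had 154.1 and 154.8 normalised counts in shCHD4 cells, against 90.2 and 94.3 in shSC cells at 20% O2. At 1% O2 it had 134.7 and 135.0 in shCHD4 cells, against 69.9 and 70.4 in shSC cells. Every shCHD4 library was above every shSC library. The fold was 1.67 at 20% O2 (log2 difference 0.74 ± 0.046 SE, adjusted p = 4.05e-11) and 1.92 at 1% O2 (log2 difference 0.94 ± 0.046 SE, adjusted p = 1.25e-12), and 90.3% and 93.5% of all genes had a lower difference. RBBP7 (RbAp46), its close relative that also works with the histone acetyltransferase HAT1, had 205.1 and 199.0 in shCHD4 cells, against 143.2 and 145.2 in shSC cells at 20% O2. At 1% O2 it had 185.0 and 193.8 in shCHD4 cells, against 128.7 and 130.6 in shSC cells, again without overlap. Its folds were 1.4 (adjusted p = 1.06e-08) and 1.46 (adjusted p = 1.90e-09). In the annotation SYNC overlaps RBBP4 exons and TXLNG overlaps RBBP7 exons on the opposite strand, and no source used here says whether the counting used strand. SYNC was low, with group means of 2.75 and 2.59 normalised counts in shCHD4 cells against 4.33 and 2.58 in shSC cells at 1% and 20% O2, and was lower under the shCHD4 label at 1% O2 (-0.57, adjusted p = 0.00104). TXLNG also differed in the other direction from its neighbour, with group means of 29.3 and 31.6 in shCHD4 cells against 41.2 and 41.2 in shSC cells. RBBP4 also has 6 processed pseudogenes and HDAC1 has 2, none of them a row of the table, so how reads from such copies were assigned is uncertain.

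The deacetylases were higher by similar amounts. HDAC1 had 135.7 and 132.9 normalised counts in shCHD4 cells, against 106.2 and 96.5 in shSC cells at 20% O2. At 1% O2 it had 126.6 and 129.9 in shCHD4 cells, against 92.6 and 102.2 in shSC cells. HDAC2 had 235.9 and 225.2 in shCHD4 cells, against 179.3 and 178.5 in shSC cells at 20% O2. At 1% O2 it had 213.5 and 218.3 in shCHD4 cells, against 161.2 and 159.8 in shSC cells. Neither gene overlapped between labels, although the shSC libraries of HDAC1 differed from each other by more than its shCHD4 libraries did. The log2 differences were 0.41 (adjusted p = 2.50e-06) and 0.40 (adjusted p = 3.07e-06) for HDAC1, and 0.36 (adjusted p = 3.48e-07) and 0.43 (adjusted p = 3.94e-08) for HDAC2, at 20% and 1% O2 in turn. HDAC3, a class I deacetylase that is not a NuRD subunit, was also higher, by 0.47 (adjusted p = 1.60e-07) and 0.40 (adjusted p = 1.10e-06). Deacetylases outside the members went both ways. Of 15 tested, 6 were higher and 5 lower at 20% O2, and 6 were higher and 6 lower at 1% O2.

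The scaffold genes moved the other way. MTA2 had 181.7 and 177.6 normalised counts in shCHD4 cells, against 215.5 and 210.5 in shSC cells at 20% O2, and 165.6 and 159.0 in shCHD4 cells, against 185.8 and 189.6 in shSC cells at 1% O2. MTA1, first found as a metastasis-associated gene, had 50.6 and 53.3 in shCHD4 cells, against 62.1 and 58.8 in shSC cells at 20% O2, and 52.6 and 50.8 in shCHD4 cells, against 60.5 and 62.1 in shSC cells at 1% O2. MTA3, described as estrogen-dependent in breast cells, had 20.1 and 19.1 in shCHD4 cells, against 25.2 and 25.1 in shSC cells at 20% O2, and 17.4 and 19.8 in shCHD4 cells, against 21.6 and 23.5 in shSC cells at 1% O2. No gene of the MTA class overlapped between labels, a trait that was not counted over all genes. The log2 differences at 20% O2 were -0.25 for MTA2 (adjusted p = 4.97e-05), -0.22 for MTA1 (adjusted p = 0.00163) and -0.35 for MTA3 (adjusted p = 0.000489), and at 1% O2 -0.21 (adjusted p = 0.000248), -0.24 (adjusted p = 0.000587) and -0.27 (adjusted p = 0.00372). When 1 library is left out its group keeps 1, whose spread is then taken from the other groups, so a call lost that way also reflects the smaller design. Leaving out shCHD4 1% O2 replicate 1 ended the MTA3 call at 1% O2 (adjusted p = 0.0863), and so did leaving out shSC 1% O2 replicate 2 (adjusted p = 0.0503), with 0.000866 to 0.0863 spanned by the alternatives. The MTA2 call at 1% O2 ended with quantile normalization (-0.073, adjusted p = 0.138), within 7.9e-05 to 0.352.

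The bridging subunits differed among themselves. GATAD2B (p66 beta) had 86.1 and 88.6 normalised counts in shCHD4 cells, against 130.7 and 132.8 in shSC cells at 20% O2, and 86.8 and 85.1 in shCHD4 cells, against 126.8 and 120.3 in shSC cells at 1% O2. Every shCHD4 library was below every shSC library, and GATAD2B was 1.51-fold lower at 20% O2 (log2 difference -0.59 ± 0.047 SE, adjusted p = 1.79e-09) and 1.43-fold lower at 1% O2 (-0.52 ± 0.047 SE, adjusted p = 9.48e-09). GATAD2A (p66 alpha), its paralog, had 210.1 and 214.9 in shCHD4 cells, against 203.9 and 206.4 in shSC cells at 20% O2. At 1% O2 it had 193.7 and 183.7 in shCHD4 cells, against 194.3 and 204.3 in shSC cells. Its log2 difference was 0.051 at 20% O2 (adjusted p = 0.313, with a 95% interval of -0.043 to 0.14). At 1% O2 GATAD2A differed by -0.078 (adjusted p = 0.117, with a 95% interval of -0.17 to 0.016). Quantile normalization turned the 1% O2 value of GATAD2A to 0.026 and called the gene as higher at 20% O2 (0.13, adjusted p = 0.019). MBD3, which unlike MBD2 binds methylated DNA poorly, had 123.3 and 127.4 in shCHD4 cells, against 112.1 and 103.6 in shSC cells at 20% O2, and 118.3 and 113.8 in shCHD4 cells, against 97.8 and 108.4 in shSC cells at 1% O2. It was higher by 0.22 (adjusted p = 0.00165) and 0.17 (adjusted p = 0.00898). Leaving out shCHD4 1% O2 replicate 1 ended the MBD3 call at 1% O2 (adjusted p = 0.0824), as did leaving out shSC 1% O2 replicate 1 (0.097, adjusted p = 0.165) or the variance trend (adjusted p = 0.0515), with 0.000564 to 0.427 spanned by the alternatives.

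**Figure D2:**
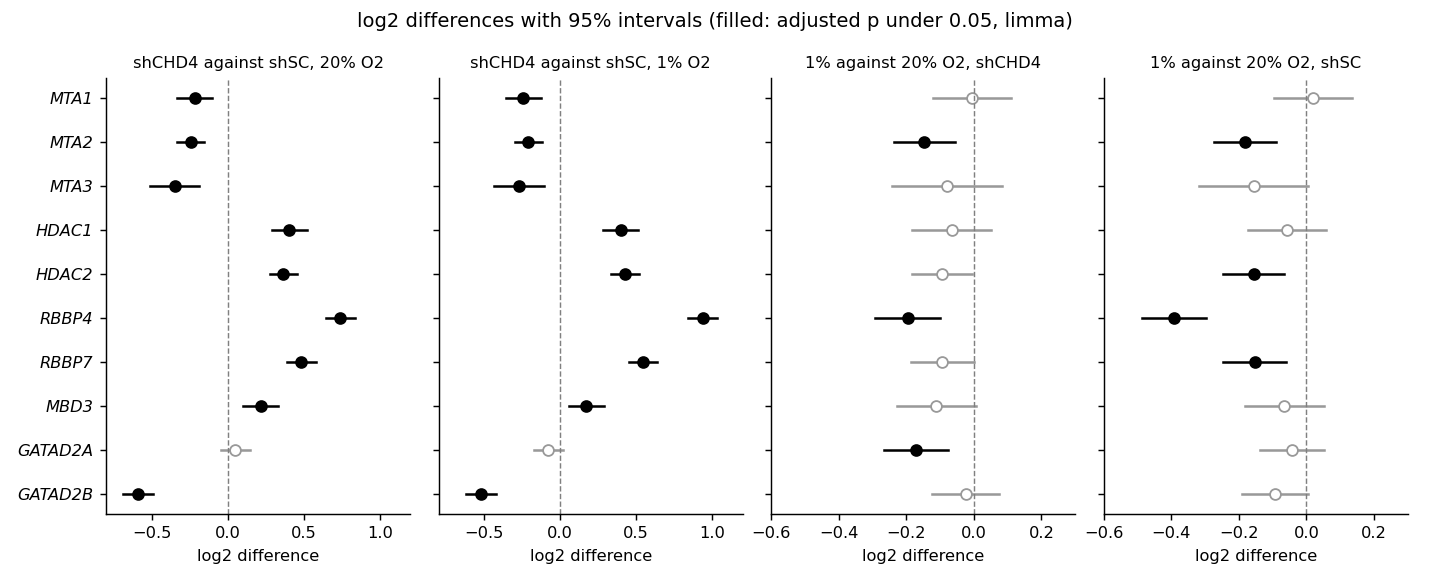
Differences on the log2(value + 0.5) scale (x axis) for the 10 members (rows) in 4 comparisons, with 95% intervals. Filled points passed limma at an adjusted p under 0.05. Between labels 5 members lie to the right of 0 and 4 to the left at each O2 level, and at 1% against 20% O2 all called members lie to the left.

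Label differences were also measured relative to neighbouring genes. After each library was centred on the 40 tested genes nearest to each member by RefSeq gene order, HDAC1, HDAC2, RBBP4 and RBBP7 remained higher and MTA3 and GATAD2B lower at both O2 levels, by adjusted p. RBBP4 was then at 0.62 and 0.82, and GATAD2B at -0.81 and -0.75. MTA2 did not pass relative to its neighbours, at -0.0074 (adjusted p = 0.896) and 0.050 (adjusted p = 0.352), nor did MBD3, at -0.036 (adjusted p = 0.510) and -0.043 (adjusted p = 0.427). MTA1 passed at 20% O2 (-0.14, adjusted p = 0.0225) and not at 1% O2 (-0.077, adjusted p = 0.202). GATAD2A passed as lower than its neighbours, by -0.19 (adjusted p = 0.000988) and -0.33 (adjusted p = 2.39e-06). A centred value is relative to the neighbours and does not give the gene's own RNA level.

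**Figure D3:**
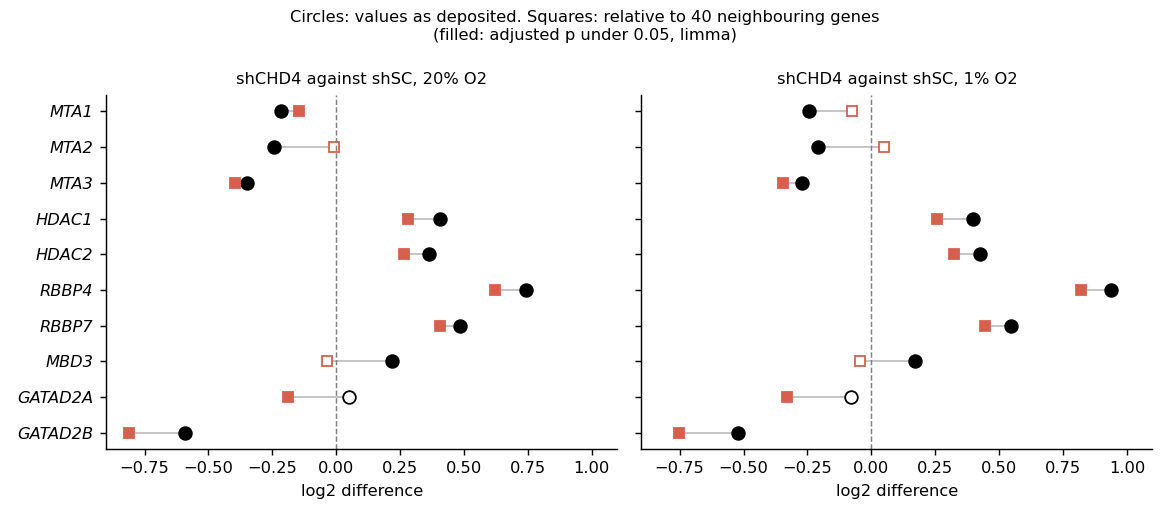
Label differences on the log2(value + 0.5) scale (x axis) of the 10 members (rows) at 20% and 1% O2, as deposited (circles) and relative to the 40 nearest tested genes (squares). Filled symbols passed limma at an adjusted p under 0.05. The squares of MTA2 and MBD3 lie near 0, while RBBP4 stays at 0.62 and 0.82.

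HDAC1 and RBBP4 are near neighbours on chromosome 1, with 4 tested genes between them in RefSeq order (GRCh38.p14). From HDAC1 towards RBBP4, the log2 difference between labels at 20% O2 was 0.41 for HDAC1, -0.090 for MARCKSL1 (adjusted p = 0.195), 0.088 for BSDC1 (adjusted p = 0.225), 0.30 for ZBTB8A (adjusted p = 0.003), 0.60 for ZBTB8OS (adjusted p = 0.000106) and 0.74 for RBBP4. At 1% O2 these values were 0.40, 0.052, 0.31, 0.41, 0.66 and 0.94, of which that of MARCKSL1 did not pass (adjusted p = 0.454). These neighbours were chosen for their position after the values of HDAC1 and RBBP4 were known.

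At 1% O2 the called members fell under both labels. In shCHD4 cells RBBP4, GATAD2A and MTA2 were lower, 3 of 10 beside 10.7% of all genes called lower (12.3% higher, 23% in either direction). In shSC cells RBBP4, MTA2, HDAC2 and RBBP7 were lower, 4 of 10 beside 17.9% of all genes called lower (17.4% higher, 35.2% in either direction). No member was called higher under either label. The median log2 difference of the members was -0.094 in shCHD4 cells and -0.12 in shSC cells, against -0.0037 and -0.011 over all genes. The summed normalised counts of the 10 members were 1294 and 1289 at 1% O2, against 1403 and 1393 at 20% O2 in shCHD4 cells, and 1139 and 1171 at 1% O2, against 1268 and 1252 at 20% O2 in shSC cells.

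RBBP4 had the largest fall of the members at 1% O2 in shSC cells. In shCHD4 cells its difference and that of GATAD2A (-0.17) lay within 1 SE of each other, and their order turned without shCHD4 1% O2 replicate 1 (-0.19 for RBBP4 and -0.21 for GATAD2A). By the counts above, both 1% O2 libraries were below both 20% O2 libraries under each label. In shCHD4 cells the log2 difference was -0.20 ± 0.046 SE (1.15-fold lower, adjusted p = 0.00502), and the call ended without shCHD4 1% O2 replicate 1 (adjusted p = 0.0551), within 7.49e-06 to 0.0551 over the alternatives. In shSC cells it was -0.39 ± 0.046 SE (1.31-fold lower, adjusted p = 3.17e-06), and 4.32% of genes had a lower value. The interaction of label and O2 for RBBP4 was 0.20 (95% interval 0.061 to 0.33, adjusted p = 0.0941), so a smaller fall under the shCHD4 label was not called. It passed without shSC 20% O2 replicate 1 (0.23, adjusted p = 0.0389), within 0.0389 to 0.274. Of the 10 members, 0 passed the interaction test in limma, where 4.36% of genes did (2.21% higher, 2.14% lower). Of the members, 1 had an unadjusted p under 0.05 there, RBBP4, and 0 passed with edgeR or with DESeq2.

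MTA2 differed by -0.15 in shCHD4 cells (adjusted p = 0.0211) and by -0.18 in shSC cells (adjusted p = 0.00322), and its shCHD4 call ended when any 1 of the 4 shCHD4 libraries was left out (adjusted p = 0.0570 to 0.200). HDAC2 differed by -0.094 in shCHD4 cells, which did not pass (adjusted p = 0.119), and by -0.16 in shSC cells (adjusted p = 0.00838). RBBP7 differed by -0.093 in shCHD4 cells (adjusted p = 0.134, and -0.20 with adjusted p = 0.00941 relative to neighbouring genes) and by -0.15 in shSC cells (adjusted p = 0.0114), and leaving out shSC 1% O2 replicate 1 ended its shSC call (adjusted p = 0.0651). GATAD2A differed by -0.17 in shCHD4 cells (adjusted p = 0.0106) and by -0.042 in shSC cells (adjusted p = 0.492), and its shCHD4 call ended without shCHD4 1% O2 replicate 2 (-0.13, adjusted p = 0.148) or shCHD4 20% O2 replicate 2 (adjusted p = 0.0773). Without a variance trend RBBP4 was the 1 member still called in shCHD4 cells, with MTA2 at adjusted p = 0.0860 and GATAD2A at 0.0701, and RBBP7 was not called in shSC cells (adjusted p = 0.0538). That GATAD2A passed under the shCHD4 label, and HDAC2 and RBBP7 under the shSC label, does not show a difference between labels, since their interactions were -0.13 for GATAD2A, 0.062 for HDAC2 and 0.060 for RBBP7, with adjusted p = 0.290, 0.645 and 0.671 in that order. MTA1 stayed nearest to 0, at -0.0061 in shCHD4 cells (95% interval -0.12 to 0.11) and 0.020 in shSC cells (95% interval -0.095 to 0.14). HDAC1, MTA3, MBD3 and GATAD2B had differences of -0.16 to -0.024 over both labels, none of them called, though MBD3 in shSC cells passed relative to neighbouring genes (-0.12, adjusted p = 0.0479).

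The balance between paralogous subunits was measured as a ratio within each library, which does not depend on how libraries are scaled. GATAD2A over GATAD2B was 2.23, 2.15, 2.43 and 2.42 in the 4 shCHD4 libraries, against 1.53, 1.70, 1.56 and 1.55 in the 4 shSC libraries, a log2 difference of 0.54. RBBP4 over RBBP7 was 0.729, 0.697, 0.752 and 0.779 in shCHD4 libraries, against 0.545, 0.541, 0.631 and 0.650 in shSC libraries, a log2 difference of 0.32. Neither ratio overlapped between labels, a trait that was not counted over pairs of other genes. HDAC1 over HDAC2 lay at 0.576 to 0.596 in shCHD4 libraries and at 0.542 to 0.640 in shSC libraries, with a log2 difference of 0.0055. By O2, MTA1 over MTA2 was 0.320 to 0.329 at 1% O2 and 0.280 to 0.302 at 20% O2, without overlap, a log2 difference of 0.17. For each of the 3 ratios without overlap the two-sided exact permutation test of 4 against 4 libraries gave p = 0.0286, the smallest that 70 arrangements allow. Their adjusted p was 0.114 over 12 ratio tests, so none passed. With this smallest p, none could have passed unless most of the 12 tests had reached it. The adjusted test therefore cannot decide whether these ratios differ. The permutations also treated the 8 libraries as exchangeable, although they form 4 groups of 2 that share label and O2 level. The other ratio differences had exact permutation p of 0.114 to 0.971, and the label differences of HDAC1 over HDAC2 and MTA1 over MTA2 changed sign when single libraries were left out.

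**Figure D4:**
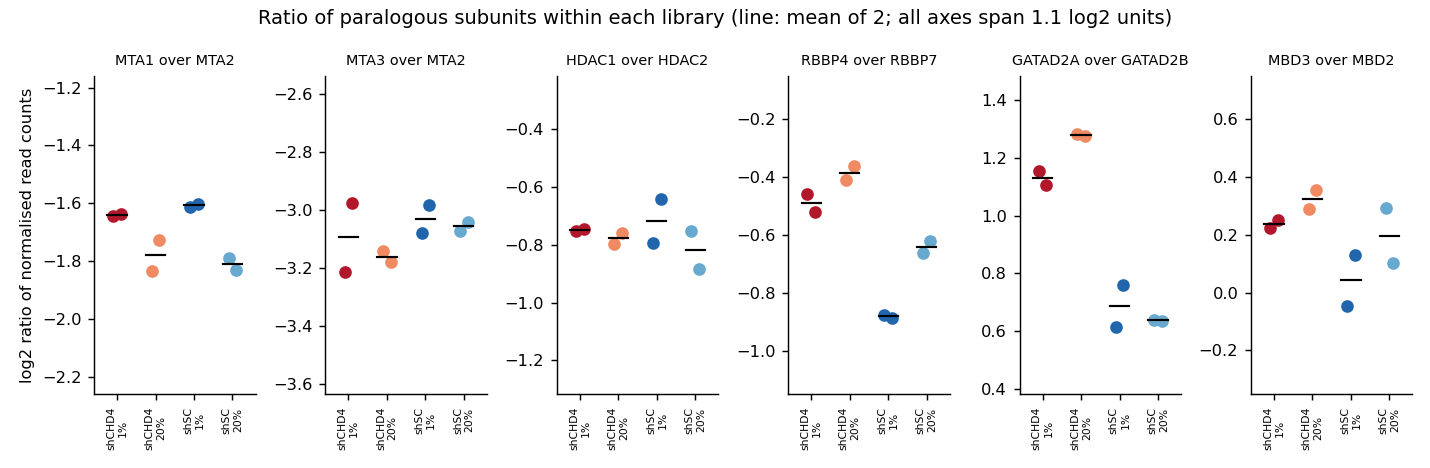
log2 ratio of normalised read counts (y axis, each spanning the same range) of paralogous subunits in each library, by label and O2 level (x axis). Points are libraries and lines are means of 2. GATAD2A over GATAD2B and RBBP4 over RBBP7 lie higher in all shCHD4 libraries, and MTA1 over MTA2 lies higher at 1% O2.

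Levels can be compared between genes only per length. Per kilobase of the longest GENCODE v29 transcript, MTA2 made up 73.3% of the summed MTA level in shCHD4 cells and 73.4% in shSC cells at 20% O2, MTA1 22.5% and 22.0%, and MTA3 4.20% and 4.55%. GATAD2A made up 75.9% of the GATAD2 level in shCHD4 cells and 66.8% in shSC cells at 20% O2, and 74.0% and 67.6% at 1% O2. RBBP7 exceeded RBBP4, which made up 28.0% of their sum in shCHD4 cells and 24.5% in shSC cells at 20% O2, and 26.5% and 21.5% at 1% O2. With the median transcript length the share of RBBP4 became 48.7% and 44.3% at 20% O2 and that of MTA2 77.3% and 77.1%, and the order within each of these classes was kept. The order of the deacetylases was not, since HDAC1 made up 70.5% of their sum in shCHD4 cells and 69.9% in shSC cells at 20% O2 by the longest transcript, and 30.6% and 30.0% by the median one. MBD3 and MBD2 were near parity per length, with MBD3 at 54.1% in shCHD4 cells and 51.9% in shSC cells at 20% O2.

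Of the other NuRD genes, CDK2AP1 (DOC1) was higher under the shCHD4 label, with a log2 difference of 0.18 at 20% O2 (adjusted p = 0.00558). At 1% O2 its difference was 0.40 (adjusted p = 2.17e-06). CDK2AP2 was higher at 20% O2 (0.14, adjusted p = 0.0444) and did not pass at 1% O2 (-0.030, adjusted p = 0.662). MBD2 did not pass, at 0.092 (adjusted p = 0.0966) and -0.023 (adjusted p = 0.681). The alternative ATPase gene CHD3 was lower at 20% O2, with a log2 difference of -0.12 (adjusted p = 0.0122) and did not pass at 1% O2 (-0.058, adjusted p = 0.215), and CHD5 was too low to be tested. In this list of 5 tested genes, 2 were higher and 1 lower by label at 20% O2, and 1 was higher and 0 lower at 1% O2, beside 75.6% and 77.4% of all genes. At 1% against 20% O2 in shSC cells, CDK2AP2 was higher (0.17, adjusted p = 0.0380) and CDK2AP1 lower (-0.15, adjusted p = 0.0420), beside 35.2% of all genes called. Of 22 tested genes of NuRD-recruiting factors, 6 were higher and 12 lower under the shCHD4 label at each O2 level, where 75.6% of all genes at 20% O2 and 77.4% at 1% O2 passed. The lymphoid zinc-finger gene BCL11A was higher by 1.88 at 20% O2, and the repressor genes BCL6 and IKZF2 were lower by log2 differences of -1.33 and -1.14. At 1% against 20% O2, ZMYND8, whose protein reads histone marks and binds NuRD, rose by 0.40 in shCHD4 cells (adjusted p = 2.44e-06) and 0.45 in shSC cells (adjusted p = 3.34e-07). Of these 22 genes 5 were higher and 1 lower with 1% O2 in shCHD4 cells, and 4 were higher and 3 lower in shSC cells, beside 23% and 35.2% of all genes called by O2 in either direction, so these shares are near those of all genes.

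The subunits shared with other complexes were set beside those complexes. The label counts that follow stand beside 37% of all genes called higher and 38.6% called lower at 20% O2, and 38.2% and 39.2% at 1% O2, and with so few genes in each list nothing particular to a list is read from them. Of 14 genes of other complexes that hold RBBP4 or RBBP7, 5 were lower and none higher at 1% O2 in shCHD4 cells, and 8 were lower and none higher in shSC cells, beside the shares of all genes given above. The CAF-1 genes CHAF1B and CHAF1A, whose proteins deposit histones behind the replication fork, fell by log2 differences of -0.38 and -0.31 in shCHD4 cells and -0.43 and -0.37 in shSC cells, and LIN52, of the DREAM complex, by -0.45 in shSC cells. Between labels 4 of these 14 were higher and 4 lower at 20% O2, with RB1, the retinoblastoma gene, higher by 1.06 and HAT1 by 0.96, while SMARCA1, an ISWI ATPase gene, was at -0.72. Of 13 SIN3 complex genes, 7 were higher and 2 lower under the shCHD4 label at 20% O2, led by ING1 at 0.96, and 7 were higher and 3 lower at 1% O2. The median SIN3 log2 difference was 0.31 at 20% O2. Neighbouring genes were not compared for these lists. Whether ING1, RB1 or other list genes differ together with their chromosome region was not tested. Of 7 tested CoREST genes, 2 were higher and 3 lower at 20% O2, with PHF21A at -0.75 and HMG20B at 0.72. Of the 3 tested MiDAC genes, ELMSAN1 was at -1.07, TRERF1 at 0.40 and DNTTIP1 at -0.28 at 20% O2.

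Among 15 other tested deacetylases, 6 were higher and 5 lower under the shCHD4 label at 20% O2, a share near the 75.6% of all genes, with HDAC9 at -1.53, SIRT1 at -1.14 and HDAC11 at 1.05. At 1% O2 against 20% O2, 2 of them were higher in shCHD4 cells, and 5 were higher and 2 lower in shSC cells, beside 23% and 35.2% of all genes. The mitochondrial sirtuin gene SIRT5 led both, at 0.42 in shCHD4 cells and 0.67 in shSC cells, with HDAC5 at 0.41 under both labels. Of 8 other methyl-CpG binding genes, 3 were higher and 4 lower under the shCHD4 label at 20% O2, beside the same 75.6%, with MBD6 at -0.90 and MBD1 at -0.89. UHRF1, which recruits the maintenance DNA methyltransferase, was lower at 1% O2 in shSC cells (-0.57, adjusted p = 6.28e-06), and its interaction was 0.41 (adjusted p = 0.0234).

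RBBP4, GATAD2B and RBBP7 varied most over the 8 libraries, with SDs of 0.48, 0.30 and 0.28 on the log2 scale. The genes whose log2 values were most like RBBP4 over the 8 libraries were TNFRSF21, HSPA14 and PPP2R1B, each with Pearson r = 0.998 among 9637 genes compared. For GATAD2B they were SRFBP1, SPRY4 and BMP2K, and for RBBP7 they were NAE1, PSMA2 and FAM53B, with r of 0.997 to 0.999. The 8 libraries form 4 groups of 2 that share label and O2 level, so many genes that differ between labels reach such values.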

How the data were processed

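Polyadenylated RNA from 8 libraries was measured. Per the labels' protocols, RNA was isolated with a column kit, treated with DNase and prepared for sequencing with KAPA reagents. Build hg19 is named in the submitters' processing notes, together with featureCounts, edgeR, TopHat, Picard 1.127, FastQC 0.11.2 and bcl2fastq 2.17. No source used here gives the annotation or the strand setting.

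FPKM is the name the authors gave the table, but the deposited values are a signal in which each entry is a whole multiple (within 0.01 reads) of 1 step per library, so the whole reads were recovered. Genes with a mean of at least 1 (12645) were fitted on log2(value + 0.5) with limma 3.58.1 (R 4.3.3), as 4 group means with a variance trend. The choice of tests allowed for FPKM or raw counts, and the test for normalised values was kept. Fold changes are on that scale and understate changes of low genes. Paralog ratios used exact permutation over libraries. edgeR 4.0.16 and DESeq2 1.42.0 on recovered reads, other scalings, filters and pseudocounts, and leaving out libraries were alternatives. Leaving out 1 library leaves its group with 1, which the fit assumes to vary like the other groups. The fits were checked on simulated data. Names were matched to RefSeq for 17289 symbols and 1522 synonyms. No coordinates of the table's build are given.

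The members, gene lists and tests were chosen with earlier results of these data known. All members are named. One further gene list is not reported here. Of each other list, up to 3 genes with the largest log2 difference among those called are named by rule for a comparison, with CHD4 and MBD2, and for the 3 members of largest SD the 3 genes most correlated over the libraries. Not every gene and comparison that this rule allows is printed, and HDAC3 was named in addition. Overlapping genes and those between HDAC1 and RBBP4 were named after values were seen. Replicate counts differed beyond sampling error, with a chi-square of 2.07 to 4.29 per degree of freedom. Replicate numbers did not pair the libraries (correlations of -0.12 to 0.12 between deviations of same-numbered libraries).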

Additional observations from a re-analysis of the deposited data

How the results depend on the processing

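Of 1000 member values under alternatives, 946 kept their direction and side of the threshold. A call was lost in 24 and gained in 9, and 25 changed sign, of which 3 are among the lost calls and 1 among the gained. The label calls of HDAC1, HDAC2, RBBP4, RBBP7 and GATAD2B, and the shSC oxygen calls of RBBP4, MTA2 and HDAC2, held under all 20 alternatives run for them. In the limma fit, dropping the variance trend or a library of a group not compared leaves the log2 difference unchanged. Only its error can change there, so the counts above and these 20 alternatives include directions that were fixed in advance. The members called at 1% against 20% O2 in shCHD4 cells numbered 3, against 1 without a variance trend, 6 with a crossed replicate block chosen after seeing the data, and 1 to 3 when single libraries were left out. Members called for the interaction numbered 0, and 0 to 1 when single libraries were left out, the 1 being RBBP4 without shSC 20% O2 replicate 1. With the planned replicate block the members called numbered 3 and 4 by O2 in shCHD4 and shSC cells, 9 and 9 by label at 20% and 1% O2, and 0 for the interaction, as without it, and the numbers do not pair the libraries. Over all genes, calls by O2 in shCHD4 cells numbered 2903, against 1920 with no filter, 1815 without a variance trend, 5034 with the crossed block and 1326 to 3468 when single libraries were left out. Interaction calls numbered 551, against 155 with no filter or without a variance trend and 245 to 994 when single libraries were left out.

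Centring on neighbouring genes changed the sign of the label difference of MBD3 (-0.036 at 20% O2, -0.043 at 1% O2), GATAD2A at 20% O2 (-0.19) and MTA2 at 1% O2 (0.050). It also did so for the oxygen difference of GATAD2A in shSC cells (0.021) and of MTA1 in shCHD4 cells (0.067) and shSC cells (-0.000396), the MTA1 interaction (0.067), and the label ratios HDAC1 over HDAC2 (-0.027) and MBD3 over MBD2 (-0.49). Centring ended the oxygen calls of MTA2 (-0.071, adjusted p = 0.300) and GATAD2A (-0.12, adjusted p = 0.0621) in shCHD4 cells, and gained those of RBBP7 in shCHD4 cells (-0.20, adjusted p = 0.00941) and MBD3 in shSC cells (-0.12, adjusted p = 0.0479). Quantile normalization turned GATAD2A at 1% O2 to 0.026 between labels. The cause of these changes was not tested.

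When single libraries were left out, the oxygen difference ranged over -0.044 to 0.032 for MTA1 and -0.17 to 0.0095 for MTA3 in shCHD4 cells, and in shSC cells over -0.019 to 0.059 for MTA1, -0.13 to 0.013 for HDAC1 and -0.14 to 0.0094 for MBD3. The interaction ranged over -0.065 to 0.012 for MTA1, -0.012 to 0.17 for MTA3, -0.079 to 0.062 for HDAC1 and -0.12 to 0.028 for MBD3. The label ratio ranged over -0.033 to 0.047 for HDAC1 over HDAC2 and -0.043 to 0.039 for MTA1 over MTA2, and GATAD2A over GATAD2B by O2 over -0.16 to 0.060. MTA3 had the fewest reads, 507 to 700 a library, and the widest standard error of the members, 0.077 for a difference of 2 groups.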
